A study of Homo sapiens with 12 samples.

Results

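The Rag GTPases and the mTOR complexes they serve form the nutrient-sensing machinery of the lysosome surface. Here 10 of their genes were followed in Huh7 cells after knockdown of FAM111B, out of 60666 genes listed and 14394 tested. The members were taken by gene name: the Rag GTPases RRAGA, RRAGB, RRAGC and RRAGD, the kinase MTOR, its partners RPTOR, MLST8 and RICTOR, and the Rag regulators FLCN and LAMTOR1. All 10 were found and all 10 passed the filter on low values, which asked for at least 1 TPM in at least 3 libraries. RRAGD was set against its paralogs because the study had listed it, with FAM111B and AKR1C1, among candidate targets in hepatocellular carcinoma (HCC).

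Huh7 is an established human HCC line. RNA was sequenced from 3 control libraries and 3 libraries of cells carrying shFAM111B, a short hairpin RNA against FAM111B delivered by lentivirus, and infected cells were selected with puromycin as stable lines. The only knockdown construct described is shFAM111B, and no source states that the 3 libraries of a group came from separate cultures, so the p-values measure the spread between these libraries, which may be technical. A further 6 libraries of the Hep3B line were not analysed here.

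A Rag GTPase works as a heterodimer, with RRAGA or RRAGB on one side and RRAGC or RRAGD on the other. The Ragulator complex, built from the LAMTOR proteins, holds the dimer on the lysosome. When amino acids are plentiful the dimer binds raptor (RPTOR) and so brings mTORC1, the complex of MTOR, RPTOR and MLST8, to its activator RHEB. FLCN, with its partner FNIP1 or FNIP2, activates the RRAGC or RRAGD side, and the same side presents the transcription factors TFEB and TFE3 to mTORC1. RICTOR instead defines mTORC2, which shares MTOR and MLST8 and signals mainly to AKT.

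FAM111B itself was lower in the cells labelled as knockdown. Its level was 7.84, 8.29 and 7.99 TPM in the control libraries and 0.96, 1.13 and 0.84 TPM in the shFAM111B libraries (log2 fold change -2.20, SE 0.11, adjusted p 6.09e-06). TPM (transcript abundance) is a read number divided by gene length and scaled to a common total in each library. Levels of different genes can therefore be compared, while the depth behind a value, and with it the counting error, cannot be had. Here and below a log2 fold change is shFAM111B minus control on the log2(TPM + 1) scale, which understates the change of low genes, and a gene is said to rise or fall when limma's adjusted p is under 0.05.

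The shift across the transcriptome was broad and has to be read beside every count. Of all tested genes 21.1% rose and 50.9% fell, 72% in either direction, and the median tested gene stood at -0.36 on the log2 scale. This share of calls that were rises, 29.4%, lay between 24.8% and 58.7% under 5 other scalings of the libraries, and the median between -0.49 and 0.17. RNA of the mitochondrial chromosome took 196140 to 201464 TPM in the control and 73237 to 78883 TPM in the shFAM111B libraries. Small nuclear, small nucleolar and miscellaneous small RNA genes took 589 to 1982 TPM in the control libraries and 10696, 15598 and 2440 TPM in shFAM111B replicates 1 to 3. Hepatocyte markers (6 of 6 detected) summed to 17277 to 17625 TPM in control and 17072 to 18935 TPM in shFAM111B cells, but APOB (log2 fold change -2.27), ALB (-0.63), TF (-0.56) and SERPINA1 (-0.29) fell while APOA1 (1.11) and TTR (1.04) rose. The HCC markers AFP and GPC3 summed to 7662 to 8030 and to 22734 to 25901 TPM. Fibroblast markers (1 of 3 at 1 TPM or more, DCN at or near 0) moved from 6.15 to 8.66 TPM up to 8.32 to 12.3 TPM, endothelial markers (1 of 3, CDH5 and VWF at or near 0) from 1.26 to 2.29 up to 2.15 to 3.49 TPM, and leukocyte markers (3 of 3) from 19.1 to 21.9 up to 23.8 to 26.0 TPM. The fibroblast sum followed COL1A2 (6.68 and 10.1 TPM on average), while COL1A1 was at 0.67 and 0.26 TPM. The leukocyte sum followed CD68 (16.3 and 22.6 TPM on average), while PTPRC was at 0.85 and 0.0067 TPM and CD14 at 3.73 and 2.53 TPM. The part of these shifts in the results below was not tested. In such bulk RNA fewer cells of a type and less RNA per cell cannot be told apart.

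Among the 10 genes, LAMTOR1 and MLST8 rose, RRAGA, RRAGC, MTOR, RPTOR, RICTOR and FLCN fell, and RRAGB and RRAGD did not pass the test, although RRAGA stood at 0.00 and 0.09 when libraries were scaled by the median of ratios or centred on their own median. The count of 2 higher and 6 lower of 10 stands beside 21.1% higher and 50.9% lower over all tested genes, and the members' median log2 fold change of -0.52 beside the -0.36 of all genes. Groups of 8 of the members did not overlap, beside 75.2% of all tested genes. With a fold of at least 2 and an unadjusted P under 0.05, RICTOR was the single member called lower and no member was called higher (23.7% and 6.82% of all tested genes). RPTOR, at 0.46 of the control in TPM, missed that fold on the log2(TPM + 1) scale (-0.99) and passed it with a pseudocount of 0.1 (-1.11). Under those other scalings the members counted higher were 2 or 3 and those counted lower 2 to 6.

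**Figure D1:**
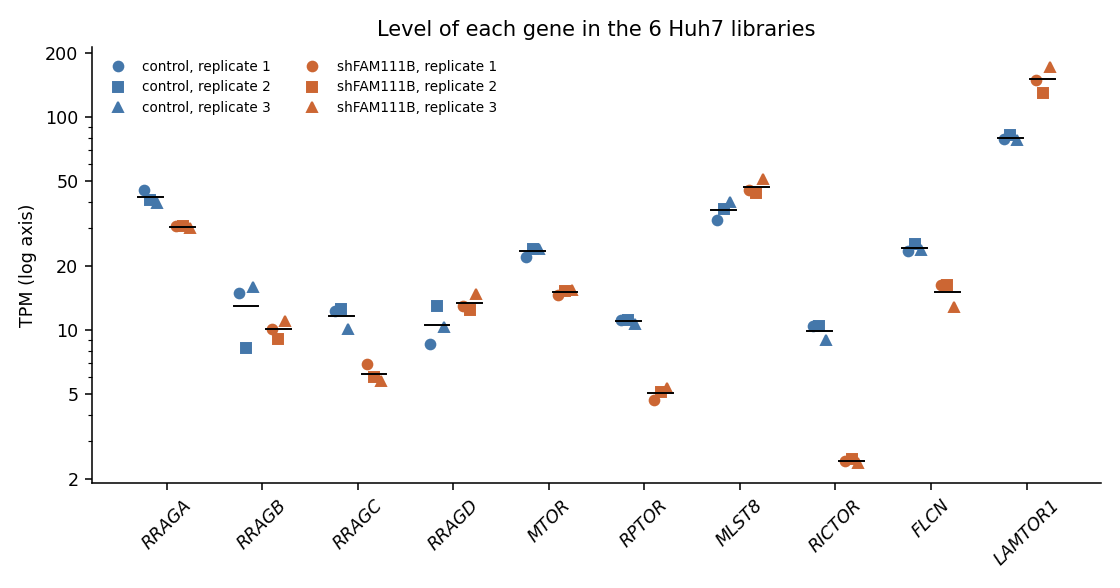
The level in TPM (log axis) of each of the 10 genes in the 3 control libraries (blue) and the 3 shFAM111B libraries (orange), with marker shape giving the replicate number and a black bar the group mean. The means of RICTOR (9.93 against 2.43 TPM) and RPTOR (11.0 against 5.05 TPM) stand furthest apart on this axis, while RRAGB and RRAGD overlap between the groups.

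In the control cells LAMTOR1 had the highest level (79.6 ± 2.11 TPM, SD, n = 3), followed by RRAGA (41.9 ± 3.16) and MLST8 (36.5 ± 3.65), whose ranges overlapped. FLCN (24.2 ± 1.02) and MTOR (23.4 ± 1.23) overlapped with each other and lay below those. RRAGB, RRAGC, RPTOR, RRAGD and RICTOR formed the lowest tier, between 9.93 and 13.0 TPM, and no neighbours in that tier were apart. In the shFAM111B cells the tier had spread out. RRAGD (13.4 ± 1.21 TPM) reached the range of MTOR and FLCN, and below it RRAGB (10.1 ± 0.98), RRAGC (6.22 ± 0.60), RPTOR (5.05 ± 0.33) and RICTOR (2.43 ± 0.06) each lay apart from the next.

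The Rag paralogs are similar in sequence, which bears on how reads between them could be divided. RRAGA lies at chr9:19049395-19050983 (+) and RRAGB at chrX:55717739-55758774 (+), in GRCh38 coordinates of GENCODE 29. Their coding sequences were identical at 84.1% of 939 aligned bases. RRAGC at chr1:38838198-38859823 (-) and RRAGD at chr6:89364636-89412270 (-) were identical at 76.1% of 1159 aligned bases. Across the 2 sides of the dimer identity was 55.5% to 62.0%. The longest coding run that each pair shares without a mismatch is printed here, because its length sets how much of a read could come from either paralog.
RRAGA and RRAGB: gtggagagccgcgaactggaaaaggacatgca
RRAGC and RRAGD: tttgactatgagatgatcttc
The first run has 32 bases and lies at chr9:19049939-19049970 in the only exon of RRAGA-201 and at chrX:55731449-55731480 in exon 6 of 11 of RRAGB-201. The second has 21 bases and lies on the minus strand, at chr1:38856918-38856938 in exon 2 of 7 of RRAGC-201 and at chr6:89387334-89387354 in exon 2 of 7 of RRAGD-202. No 50-base stretch of any annotated RRAGA, RRAGB or RRAGD transcript occurred in another gene. For RRAGC 22.3% of its 50-base stretches did, nearly all of them in AL139260.2, a transcript on the same strand that shares 1183 exon bases with it.

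RRAGA, which binds raptor when it carries GTP, had the highest level of the 4 in every library. It measured 45.5, 40.8 and 39.5 TPM in the control and 30.7, 30.8 and 30.0 TPM in the shFAM111B libraries. The shFAM111B values were all lower and close to each other (log2 fold change -0.44, SE 0.07, adjusted p 0.000848), which was -0.08 relative to the median gene. The call held under 1 of the 5 other scalings.

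RRAGB, the paralog that can take the place of RRAGA in the dimer, measured 14.9, 8.24 and 15.9 TPM in the control and 10.1, 9.11 and 11.1 TPM in the shFAM111B libraries. Control replicate 2 was the lowest of the 6 and the groups overlapped (log2 fold change -0.29, 95% interval -0.84 to 0.25, adjusted p 0.28). Without control replicate 2 the difference was -0.57 with an adjusted p of 0.00529. Without control replicate 1 or 3 it was -0.18 or -0.13 (adjusted p 0.57 and 0.644). The 5 other scalings gave values from -0.42 to 0.24, and 0 of them passed the threshold.

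RRAGC, on the other side of the dimer, measured 12.2, 12.6 and 10.1 TPM in the control and 6.90, 6.0 and 5.77 TPM in the shFAM111B libraries. All 3 shFAM111B values were lower (log2 fold change -0.80, SE 0.12, adjusted p 0.000651). The sign held under the 5 other scalings (-0.93 to -0.27), and the call was lost under quantile normalization (-0.28, adjusted p 0.0758) and centring on the library median (-0.27, adjusted p 0.0796). The overlapping AL139260.2 was at 0.00, 0.00 and 0.07 TPM in the control and at 0.00, 0.00 and 11.3 TPM in the shFAM111B libraries. How reads were divided between it and RRAGC, above all in shFAM111B replicate 3, was not tested.

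RRAGD measured 8.56, 12.9 and 10.3 TPM in the control and 13.0, 12.4 and 14.8 TPM in the shFAM111B libraries. Control replicate 2 lay among the shFAM111B values, so the groups overlapped (log2 fold change 0.33, SE 0.15, 95% interval -0.02 to 0.68, adjusted p 0.0829), while relative to the median gene the value was 0.69. Without control replicate 2 the difference was 0.47 with an adjusted p of 0.018, and without control replicate 1 it was 0.20 with an adjusted p of 0.229. It was positive under all 5 other scalings (0.21 to 0.86) and past the threshold under 4 of them.

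A ratio of genes within a library does not move when that library is rescaled, so RRAGD was also measured against each paralog in that way. The log2 ratio of RRAGD to RRAGC was -0.51, 0.04 and 0.04 in the control and 0.92, 1.05 and 1.35 in the shFAM111B libraries, which is 2.38-fold higher (difference 1.25, SE 0.22). Without shFAM111B replicate 3, where AL139260.2 was at 11.3 TPM, the difference was 1.13. The log2 ratio of RRAGD to RRAGA was -2.41, -1.66 and -1.94 in the control and -1.24, -1.31 and -1.03 in the shFAM111B libraries, 1.75-fold higher (difference 0.81, SE 0.24). In both ratios the groups were apart, and the exact two-sided permutation test gave p = 0.1, the smallest that 3 against 3 allows, or 0.15 when adjusted over the 3 ratios. The log2 ratio of RRAGD to RRAGB was -0.80, 0.65 and -0.63 in the control and 0.37, 0.45 and 0.42 in the shFAM111B libraries. There control replicate 2 exceeded all shFAM111B libraries and the groups overlapped (difference 0.67, SE 0.46, exact permutation p = 0.4), and without that replicate the difference was 1.13.

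**Figure D2:**
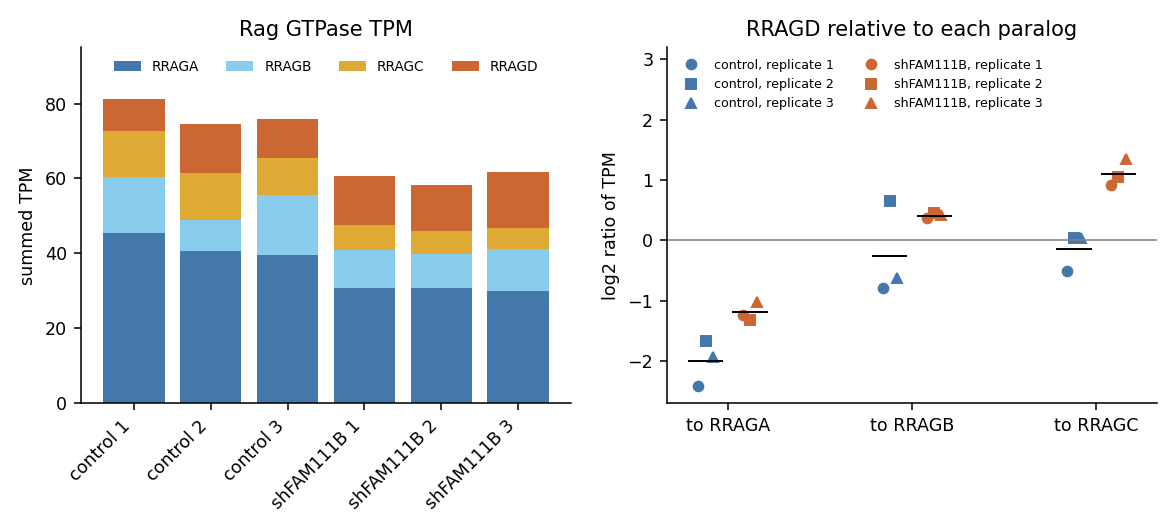
Left, the summed TPM of the 4 Rag GTPases in each library, stacked by gene. Right, the log2 ratio of RRAGD to each paralog within each library (points, shape by replicate; bars, group means). RRAGD against RRAGC separates the groups with the widest margin, and RRAGD against RRAGB overlaps because of control replicate 2.

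As a share of the Rag pool, RRAGD went from 10.5%, 17.3% and 13.6% in the control to 21.4%, 21.3% and 23.9% in the shFAM111B libraries. Among the RRAGC and RRAGD transcripts its share was 41.2%, 50.6% and 50.6% in the control and 65.4%, 67.4% and 71.9% in the shFAM111B libraries, without overlap. The highest of these came from shFAM111B replicate 3, where AL139260.2 was at 11.3 TPM. The share of RRAGA among RRAGA and RRAGB was 76.6 ± 6.06% and 75.2 ± 2.05% (SD, n = 3) and overlapped. The pool itself was 77.1 ± 3.54 TPM in the control and 60.2 ± 1.69 TPM in the shFAM111B cells as deposited (0.78-fold), but 1.07-fold and overlapping after median-of-ratios scaling 1.04-fold and overlapping after upper-quartile scaling, and 0.72-fold and apart after rescaling to nuclear protein-coding genes.

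The profile of RRAGD over the 6 libraries was compared with that of 12037 tested protein-coding genes by the root mean square difference of log2(TPM + 1) values centred on each gene's mean. The nearest were FOXO4 (0.05), SPC25 (0.06), ZNF585A (0.07), PRKCZ (0.08) and TRMT2A (0.08). FOXO4 was low, at 0.41, 0.91 and 0.59 TPM in the control and 1.02, 1.06 and 1.28 TPM in the shFAM111B libraries. With a pseudocount of 0.1 its log2 fold change was 0.78 beside 0.35 for RRAGD, so its place depends on the pseudocount. PRKCZ was also low, between 1.89 and 3.75 TPM. FOXO4 is a forkhead transcription factor, SPC25 a kinetochore subunit and PRKCZ an atypical protein kinase C. Of these 5 genes SPC25 passed the test for a rise (log2 fold change 0.37, adjusted p 0.0449), and without control replicate 1 it no longer did (0.23, adjusted p 0.103). MLST8 came 82nd, and RRAGA, RRAGB and RRAGC ranked 5254th, 6352nd and 7405th.

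MTOR, the kinase of both complexes (chr1:11106535-11262507, -), measured 22.0, 24.1 and 24.1 TPM in the control and 14.6, 15.3 and 15.5 TPM in the shFAM111B libraries. All 3 shFAM111B values were lower (log2 fold change -0.60, SE 0.07, adjusted p 0.000215). The difference kept its sign under all 5 other scalings, passed the threshold under 2 of them, and turned to 0.32 (adjusted p 0.0076) when the trend with transcript length and mean expression was removed.

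RPTOR, the raptor subunit that recognises mTORC1 substrates and binds the Rag dimer (chr17:80544819-80966371, +), measured 11.2, 11.2 and 10.7 TPM in the control and 4.70, 5.10 and 5.36 TPM in the shFAM111B libraries. The values of the control group were nearly equal, and those of the shFAM111B group lay near 0.46 of them (log2 fold change -0.99, SE 0.09, adjusted p 5.77e-05). The fall passed the threshold under all 5 other scalings, but stood at -0.14 with an adjusted p of 0.20 after removal of the trend with length and expression.

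MLST8, the small beta-propeller subunit bound to the kinase domain in both complexes (chr16:2204248-2209416, +), measured 32.7, 36.8 and 39.97 TPM in the control and 45.4, 44.2 and 50.9 TPM in the shFAM111B libraries. The groups did not overlap and MLST8 rose (log2 fold change 0.35, SE 0.09, adjusted p 0.0106). It shares 164 exon bases with BRICD5 on the opposite strand, which measured 4.95 TPM in the control and 7.74 TPM in the shFAM111B cells on average. Whether the counting used strand is not given in the sources used here.

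RICTOR, the scaffold that defines mTORC2 (chr5:38937919-39074408, -), had the largest fall of the members. It measured 10.4, 10.4 and 8.97 TPM in the control and 2.43, 2.48 and 2.37 TPM in the shFAM111B libraries (log2 fold change -1.67, SE 0.10, adjusted p 1.15e-05). No shFAM111B value came near the control range, and the fall passed the threshold under all 5 other scalings (-1.84 to -1.14) and after removal of the trend with length and expression (-0.70, adjusted p 0.000772). OSMR, which shares 229 exon bases with RICTOR on the opposite strand, averaged 28.96 TPM in the control and 10.8 TPM in the shFAM111B cells. Of the other mTORC2 genes listed, 0 of 2 tested were called, beside 72% of all tested genes.

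The balance of transcripts between the subunits is given by their ratios within each library. The ratio of RPTOR to RICTOR was 1.07, 1.07 and 1.19 in the control and 1.93, 2.06 and 2.26 in the shFAM111B libraries. The ratio of MTOR to RPTOR was 2.13 ± 0.15 and 2.99 ± 0.11 (SD, n = 3), and that of MLST8 to MTOR 1.56 ± 0.09 and 3.10 ± 0.20. None of these 3 ratios overlapped between the groups, and they were not tested beyond that. The genes compared differ in transcript length (MLST8 2116 nt, RPTOR 6408 nt, MTOR 8677 nt, RICTOR 9543 nt). With the trend with length and expression removed MLST8 stood at 0.44, MTOR at 0.32, RPTOR at -0.14 and RICTOR at -0.70. The ratios were not recomputed with that trend removed.

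**Figure D3:**
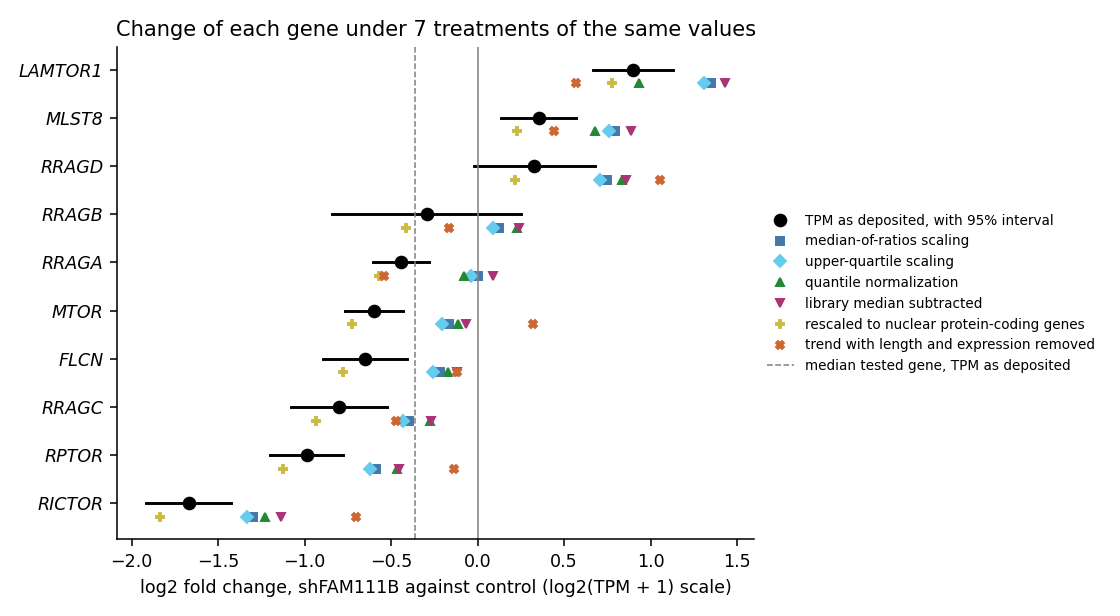
The log2 fold change of each of the 10 genes, shFAM111B against control, from the TPM as deposited (black points with 95% intervals) and under 6 other treatments of the same values (coloured symbols); the dashed line marks the median tested gene at -0.36. LAMTOR1, MLST8 and RRAGD lie above 0 and RICTOR, RPTOR and RRAGC below 0 in every treatment, whereas RRAGA, RRAGB and MTOR cross 0.

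FLCN, folliculin, the GTPase-activating protein of RRAGC and RRAGD (chr17:17212212-17237188, -), measured 23.5, 25.3 and 23.7 TPM in the control and 16.2, 16.2 and 12.9 TPM in the shFAM111B libraries. All shFAM111B values were lower (log2 fold change -0.65, SE 0.10, adjusted p 0.000972), with shFAM111B replicate 3 the lowest. It passed the threshold under 1 of the 5 other scalings, where the values ran from -0.78 to -0.12. FLCN shares 12.5% of its 50-base stretches with other genes, mostly AC055811.2 on the same strand, which was at 0.40, 1.07 and 1.56 TPM in the control and 2.36, 3.49 and 3.82 TPM in the shFAM111B libraries. Its partners fell further. FNIP1 went from 6.22 to 2.50 TPM on average (log2 fold change -1.05, adjusted p 0.000329) and FNIP2 from 12.6 to 3.41 TPM (-1.62, adjusted p 1.13e-05), so that the ratio of FLCN to their sum was 1.29 ± 0.13 in the control and 2.58 ± 0.47 in the shFAM111B cells (SD, n = 3). With the trend with length and expression removed FLCN stood at -0.12, FNIP1 at -0.25 and FNIP2 at -0.75.

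LAMTOR1, the lipid-anchored subunit that ties Ragulator to the lysosome membrane (chr11:72085895-72103387, -), measured 78.7, 82.1 and 78.2 TPM in the control and 149.6, 130.0 and 171.6 TPM in the shFAM111B libraries. The control values were tight and the shFAM111B values more spread, with a clear gap between them (log2 fold change 0.90, SE 0.10, adjusted p 0.000143). The rise passed the threshold under all 5 other scalings (0.78 to 1.43). No 50-base stretch of it occurred in another gene.

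The other Ragulator subunits did not move together. LAMTOR2 rose from 116.4 to 191.2 TPM on average (log2 fold change 0.71, adjusted p 0.000149), and LAMTOR5 from 127.0 to 218.4 TPM (0.78, adjusted p 9.25e-06). LAMTOR4 rose most, from 65.2, 62.6 and 60.6 TPM to 325.1, 286.9 and 372.5 TPM (2.36, adjusted p 3.15e-06). LAMTOR3 fell from 24.5, 24.9 and 22.9 TPM to 19.8, 16.5 and 15.6 TPM (-0.46, adjusted p 0.00434), but stood at 0.02 and 0.07 after quantile normalization and after centring on each library's median. LAMTOR3 thus went from 5.88 ± 0.28% to 1.93 ± 0.33% of the summed Ragulator TPM and LAMTOR4 from 15.3 ± 0.57% to 36.2 ± 1.40% (SD, n = 3). The sum of the 5 subunits was 409.9 ± 1.68 TPM in the control and 905.5 ± 84.8 TPM in the shFAM111B cells, and its fold lay between 2.02 and 3.03 under the 3 scalings for which a sum was computed. Neither the sum nor the shares were computed with the trend with length and expression removed. There LAMTOR1 stood at 0.57, LAMTOR2 at 0.03, LAMTOR3 at 0.16, LAMTOR4 at 1.56 and LAMTOR5 at 0.62. Of the 50-base stretches of LAMTOR4 and LAMTOR5, 12.6% and 19.0% occurred in other genes, mostly C7orf43 and LAMTOR5-AS1. The ratio of LAMTOR1 to RRAGA, anchor to GTPase, was 1.73, 2.01 and 1.98 in the control and 4.87, 4.22 and 5.71 in the shFAM111B libraries.

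Of 50 further genes of the pathway 48 were tested, with 13 higher, 19 lower and 16 not called, beside 21.1% higher and 50.9% lower of all tested genes. Their median log2 fold change was -0.18, beside -0.36 for all genes. Under the 5 other scalings the number higher lay between 10 and 25 and the number lower between 9 and 23.

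The complexes that set the nucleotide state of RRAGA and RRAGB were mixed. In GATOR1, their GTPase-activating complex, NPRL2 rose (log2 fold change 0.48, adjusted p 0.0314) and NPRL3 fell (-0.65, adjusted p 0.000717), with 1 of 3 not called. NPRL3 passed the threshold under 2 of the 5 other scalings (-0.78 to -0.11). In GATOR2, the antagonist of GATOR1, 3 of 5 fell, beside 50.9% of all tested genes. MIOS fell most (-1.17, adjusted p 0.000116), and WDR24, with 32.0% of its 50-base stretches shared with another gene, rose (0.43, adjusted p 0.0323). In KICSTOR, which places GATOR1 on the lysosome, C12orf66 was called lower (-0.61, adjusted p 0.0491) although its groups overlapped and the call held under 1 of the 5 other scalings, and the other 3 were not called. Among 7 genes listed as amino acid sensors, CASTOR2, a paralog of the arginine sensor CASTOR1, rose from 6.10 to 19.2 TPM (1.51, adjusted p 2.66e-05). Of its 50-base stretches 24.7% were shared with other genes. CASTOR1 itself was at 1.48 and 2.05 TPM, overlapped between the groups and was not called (0.32, adjusted p 0.37). It shared 40.5% of its 50-base stretches with another gene. The S-adenosylmethionine sensor BMT2 fell from 2.33 to 0.85 TPM (-0.85, adjusted p 0.00144).

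RHEB, the GTPase that activates mTORC1, was not called, at 132.6 TPM in the control and 137.6 TPM in the shFAM111B cells on average (log2 fold change 0.05, SE 0.07, adjusted p 0.54), but passed the test for a rise under 3 of the 5 other scalings (0.46 to 0.58). Of the TSC complex, which switches RHEB off, TSC1 fell from 19.0 to 9.90 TPM (-0.87, adjusted p 7.48e-05) and TBC1D7 rose from 33.6 to 56.8 TPM (0.74, adjusted p 4.63e-05). TSC2 overlapped between the groups (-0.28, adjusted p 0.12), and without shFAM111B replicate 3 it passed the test for a fall (-0.44, adjusted p 0.00449). Under the 5 other scalings it ran from -0.41 to 0.25 and passed the threshold under 1 of them. With the trend with length and expression removed it passed the test for a rise (0.505, adjusted p 0.0192). Of the inhibitory subunits of the complexes, AKT1S1 rose (0.35, adjusted p 0.000592) and DEPTOR, at 1.61 and 0.75 TPM, was called lower (-0.57, adjusted p 0.0183), a call that held under 1 of the 5 other scalings. Of the TTT factors that assemble MTOR 2 of 3 were called lower, beside 50.9% of all tested genes. TELO2 was among them (-0.29, adjusted p 0.044) with overlapping groups, although TELO2 was above 0 under 4 of the 5 other scalings (0.10 to 0.24).

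Among 8 direct mTORC1 substrates 2 rose and 4 fell, beside 21.1% higher and 50.9% lower of all tested genes. LARP1, which holds back translation of ribosomal protein mRNAs, fell from 95.9, 95.5 and 93.8 TPM to 18.0, 19.4 and 17.4 TPM (log2 fold change -2.32, adjusted p 1.54e-06). On the log2(TPM + 1) scale that was the largest change of the pathway list apart from the rise of LAMTOR4. In TPM itself the low gene TFEC rose 5.43-fold and LAMTOR4 5.23-fold. The S6 kinase gene RPS6KB1 fell from 14.7 to 7.08 TPM (-0.97, adjusted p 0.00035). Its paralog RPS6KB2 had the higher level and rose from 142.4 to 162.7 TPM (0.19, adjusted p 0.0211). MAF1, a repressor of RNA polymerase III, rose from 37.4 to 66.8 TPM (0.82, adjusted p 4.31e-05). ULK1, the kinase that starts autophagy, was called lower by the TPM as deposited (-0.28, adjusted p 0.0451), but was above 0 under 4 of the 5 other scalings (0.11 to 0.25). EIF4EBP1, the translation repressor, overlapped between the groups (0.20, adjusted p 0.0633), but passed the test for a rise under 3 of the 5 other scalings (0.61 to 0.73). With the trend with length and expression removed it passed the test for a fall instead (-0.38, adjusted p 0.0167). Its paralog EIF4EBP2 fell from 48.2 to 21.6 TPM (-1.12, adjusted p 5.66e-06). RPS6KB2 and EIF4EBP2 were not followed under the other scalings.

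The MiT/TFE transcription factors, which mTORC1 keeps out of the nucleus and which are known to drive RRAGD, moved in both directions. TFE3 was the most abundant and fell from 72.7, 71.9 and 76.6 TPM to 36.3, 37.1 and 34.1 TPM (log2 fold change -1.02, adjusted p 7.88e-06). TFEB rose from 0.25, 0.64 and 0.84 TPM to 1.65, 1.45 and 2.04 TPM (0.80, adjusted p 0.00741), and TFEC from 0.34 to 1.83 TPM on average (1.07, adjusted p 0.00069). MITF was at 0.02 TPM or less in every library and was not tested. TFE3 lay above TFEB and TFEC in every library.

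**Figure D4:**
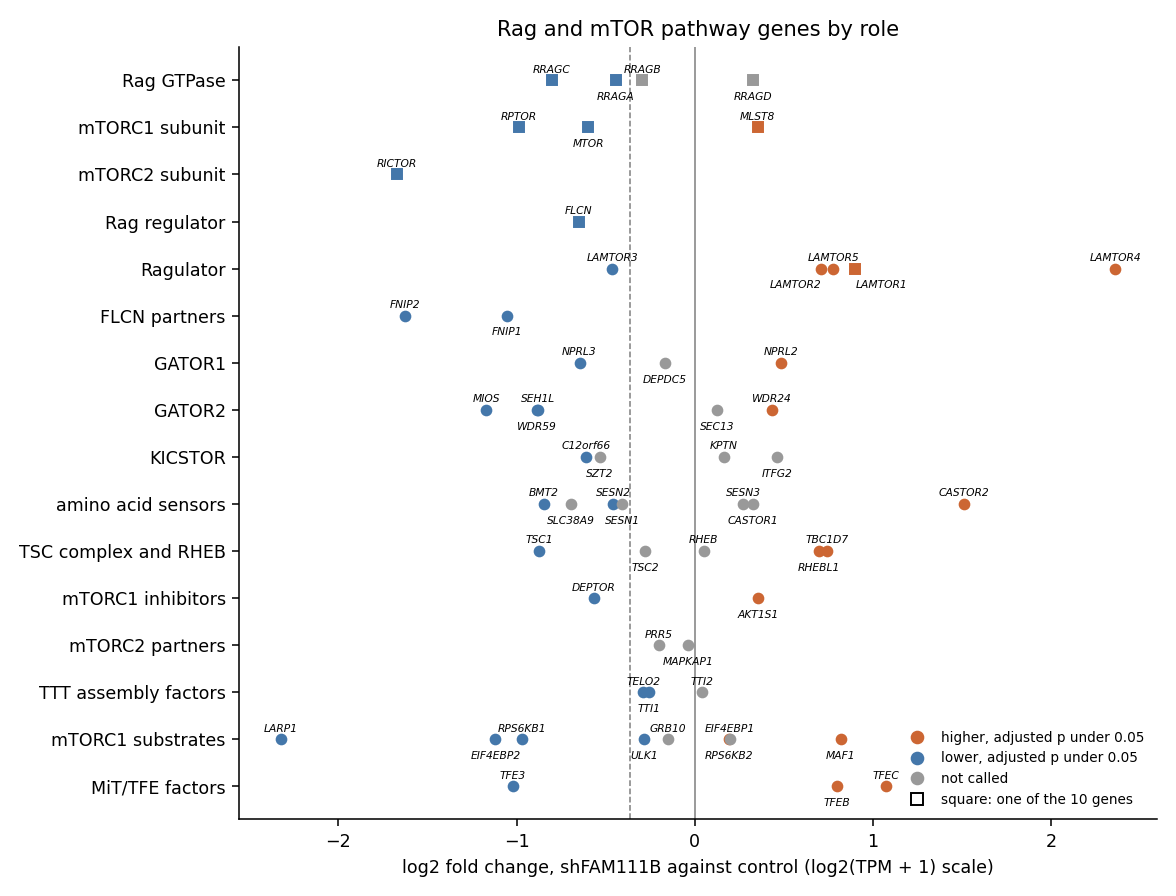
The log2 fold change of the 10 genes (squares) and of the 48 tested genes of the pathway list (circles), shFAM111B against control, by role; orange marks a rise and blue a fall at an adjusted p under 0.05, grey no call, and the dashed line the median tested gene. Ragulator genes lie to the right except LAMTOR3, and FLCN partners lie to the left. Of the called genes named in the text, LAMTOR3, RRAGA, ULK1 and TELO2 cross 0 under other scalings. RPS6KB2, EIF4EBP2 and the called genes drawn here but not named were not followed under those scalings, and some may cross 0 too.

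The factors of that family bind the letters TCACGTG, a longer form of CACGTG. The promoter sequences of RefSeq (GRCh38.p14, 250 bases before to 50 after the start) were searched on both strands for both forms. Entries were found for 7 of the 10 genes, and not for MLST8, RRAGA and RRAGD. CACGTG was in 7.26% of 35116 promoters and TCACGTG in 3.71%, and both were in the promoters of the same 3 members, LAMTOR1, RRAGB and RRAGC. In the pathway list CACGTG was in 7 of 40 and TCACGTG in 3 of 40, LAMTOR4, FNIP1 and TSC2. The stretches around the matches of TCACGTG are shown for the 3 members and LAMTOR4, with the match (on either strand, or on both where 8 letters are in capitals) in capitals, because they put genes that rose and genes that fell side by side.
LAMTOR1, chr11:72103432-72103488 (-): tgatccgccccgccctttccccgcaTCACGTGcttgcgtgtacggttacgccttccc
LAMTOR4, chr7:100148879-100148917 (+): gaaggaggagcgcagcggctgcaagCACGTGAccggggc
RRAGC, chr1:38859853-38859909 (-): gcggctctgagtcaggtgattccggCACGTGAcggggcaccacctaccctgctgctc
RRAGB, chrX:55717609-55717748 (+): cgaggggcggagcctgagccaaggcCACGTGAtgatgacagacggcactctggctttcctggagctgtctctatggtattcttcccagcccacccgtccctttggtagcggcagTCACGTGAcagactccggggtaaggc
With these letters in the window LAMTOR1 and LAMTOR4 rose, RRAGC and FNIP1 fell, and RRAGB and TSC2 were not called. The match is a description of the sequence and not of binding.

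The change of a gene moved with the length of its longest annotated transcript across all tested genes. The median log2 fold change was 0.43 for 1484 genes of up to 1000 nt, 0.17 for 2237 genes of 1000 to 2000 nt, -0.31 for 5166 genes of 2000 to 4000 nt, -0.78 for 4346 genes of 4000 to 8000 nt and -0.94 for 1030 longer genes. Short LAMTOR1 (1346 nt) and long RICTOR (9543 nt) and RPTOR (6408 nt) changed in the direction of their class median. RRAGD (4900 nt, class median -0.78), MLST8 (2116 nt, -0.31) and RRAGA (1589 nt, 0.17) had the opposite sign to theirs. Within its own class LAMTOR1 was at percentile 85.3, RICTOR at 15.0 and RPTOR at 38.5. RRAGD was at percentile 90.3 of its class, RRAGA at 20.5, RRAGC (2732 nt) at 27.0 and RRAGB (2061 nt) at 51.1. MTOR (8677 nt) was at percentile 69.0, FLCN (3638 nt) at 33.8 and MLST8 at 81.0. With the trend with length and mean expression removed together from each library RRAGD was higher by 1.05 on the log2 scale (adjusted p 0.000897), and its log2 ratio to RRAGC differed by 1.53 and to RRAGA by 1.60. MTOR, TSC1, LAMTOR3, TELO2 and ULK1 then stood above 0 (0.32, 0.09, 0.16, 0.18 and 0.45). The calls of RPTOR, FLCN, FNIP1 (-0.25), RPS6KB1 (-0.18), LAMTOR2 (0.03), NPRL3 (-0.19), C12orf66 (-0.09) and DEPTOR (-0.38) were lost. The parts of transcript length and of expression level were not separated.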

How the data were processed

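The authors deposited one table of Huh7 TPM per library, with group means and their own fold change (a ratio), log2 fold change, p-value and adjusted p-value, and those comparison columns were not used. The labels' processing notes name RSEM, DESeq2 and hg38 without role or version, and the sample labels describe a stranded poly(A) kit where the paper names TruSeq. Depth is unknown, so no count test was run. The 14394 genes that reached 1 TPM in 3 or more libraries were compared on log2(TPM + 1) with limma 3.58.1 (R 4.3.3, lmFit, eBayes with trend, two-sided, no covariate) and Benjamini-Hochberg adjustment over all of them. Within-library ratios were compared by an exact permutation test (scipy 1.17.1). Lengths, positions and exon overlaps come from GENCODE 29, which lists 96.3% of the genes, and promoters from RefSeq. The members and gene lists were chosen with earlier results of these data known. The genes named are the members, FAM111B, the Ragulator, FLCN-partner, TSC, RHEB, substrate and MiT/TFE genes of a written list, the called genes with the largest rise and fall in each role, and the 5 genes most like RRAGD. OSMR, BRICD5, AL139260.2, AC055811.2, C7orf43 and LAMTOR5-AS1 were added for their overlap, and CASTOR1, RPS6KB2 and EIF4EBP2 as paralogs of CASTOR2, RPS6KB1 and EIF4EBP1. The script was tested on simulated data. Alternatives were other filters and pseudocounts, a replicate block, libraries left out, scalings and removal of the joint trend with transcript length and mean expression by loess (span 0.75).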

Additional observations from a re-analysis of the deposited data

How the results depend on the processing

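The alternatives were no filter, at least 1 TPM in every library, a pseudocount of 0.1, the replicate block, each library left out, shFAM111B replicates 1 and 2 left out together, 5 scalings and removal of the joint trend with transcript length and mean expression. The knockdown of FAM111B kept its direction and its call in each alternative that tested it (log2 fold change -2.93 to -1.66), and LAMTOR1, MLST8 and RICTOR kept theirs in all. Median-of-ratios scaling gave 3 members lower, 1 higher by at least 2-fold, 21 pathway genes higher and 10 lower, and 5151 of all tested genes higher, 2031 higher and 1799 lower by at least 2-fold, with RRAGA at 0.00013, ULK1 at 0.15 and TELO2 at 0.14. Upper-quartile scaling gave 1 member higher by at least 2-fold, 21 pathway genes higher and 11 lower, 4938 of all genes higher, 1899 higher and 1910 lower by at least 2-fold, with ULK1 at 0.11 and TELO2 at 0.10. Quantile normalization gave 2 members lower, 11 pathway genes lower, 4675 of all genes higher, 1694 higher and 1849 lower by at least 2-fold, with ULK1 at 0.19, LAMTOR3 at 0.020 and TELO2 at 0.20. Centring on the library median gave 2 members lower, 1 higher by at least 2-fold, 25 pathway genes higher and 9 lower, 5995 of all genes higher and 4225 lower, 2597 higher and 1305 lower by at least 2-fold, with RRAGA at 0.090, ULK1 at 0.25, LAMTOR3 at 0.070 and TELO2 at 0.24. Removal of that trend gave 4 members higher and 3 lower, 1 higher and 0 lower by at least 2-fold, 21 pathway genes higher and 8 lower, 1447 of all genes lower by at least 2-fold, log2 ratios of RRAGD to RRAGA of 1.60 and to RRAGC of 1.53, MTOR at 0.32, TSC1 at 0.090, TSC2 at 0.50, ULK1 at 0.45, LAMTOR3 at 0.16, TELO2 at 0.18 and EIF4EBP1 at -0.38. Why the scalings and the trend removal move these values was not tested. Over the single genes followed under the alternatives, 583 values stayed on their side of the threshold (some uncalled ones, such as RRAGB, with another sign), 80 lost their call, 44 gained one, and the 19 that were called in either setting and turned are given above. With a pseudocount of 0.1, and with TPM rescaled to nuclear protein-coding genes, 2 members were lower by at least 2-fold. With at least 1 TPM in every library, fewer genes were tested and 634 were higher by at least 2-fold.

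With each library left out in turn the members higher were 2 to 3, those lower 6 to 7 and those lower by at least 2-fold 1 to 2, since RPTOR passed that fold without control replicate 3 or shFAM111B replicate 3. RRAGB (adjusted p 0.00529) and RRAGD (0.018) passed the threshold without control replicate 2, as did TRMT2A, FOXO4 and ZNF585A. Weaker calls of the other genes were lost with 1 library left out: ULK1 without control replicate 1 or 3 or shFAM111B replicate 2 or 3 (adjusted p 0.0652 to 0.133), NPRL2 without control replicate 2 or 3 (0.0852 and 0.0877), WDR24 without any library but control replicate 3 (0.0519 to 0.10), C12orf66 without any but shFAM111B replicate 1 (0.0517 to 0.149), DEPTOR without control replicate 1 or 2 or shFAM111B replicate 3 (0.0558 to 0.0583), TELO2 without control replicate 2 or 3 or shFAM111B replicate 1 or 2 (0.107 to 0.133) and SPC25 without any but control replicate 2 (0.057 to 0.112). TSC2 passed without shFAM111B replicate 3 (0.00449) and EIF4EBP1 without control replicate 3 (0.0429) or shFAM111B replicate 2 (0.00902). The RRAGD ratios lay between 0.61 and 0.98 to RRAGA, 0.40 and 1.13 to RRAGB and 1.07 and 1.35 to RRAGC. Without shFAM111B replicates 1 and 2 the remaining library was assumed to vary like the control group, and 1 member, LAMTOR1, was higher by at least 2-fold (log2 fold change 1.10). The same-numbered libraries of the groups deviated together with r of 0.05, 0.03 and 0.09, so the numbers were taken not to pair them. With the replicate block 3022 genes were higher and 7198 lower and no member changed its call, with RRAGD at an adjusted p of 0.099, while TSC2 (0.0385) and EIF4EBP1 (0.0384) passed the threshold and SPC25 (0.0693) no longer did. Not every library correlated best with its own number.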
